A study of Mus musculus with 12 samples.

Results

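The liver lineage transcription factors are a set of 8 genes, Hnf4a, Foxa1, Foxa2, Foxa3, Cebpa, Onecut1, Onecut2 and Prox1, taken as a named list out of 54146 gene identifiers in the count tables. All 8 were matched by Ensembl identifier to a GRCm38 gene, and all 8 were among the 14283 genes tested. Onecut1 passed the filter on low counts through the untransformed libraries alone: 3 of 3 untransformed libraries lay above its cutoff of 0.342 CPM (library-scaled read counts) and none of the 9 others did. Foxa3 lay above that cutoff in 2 of 3 Cdk8 knockout, 2 of 3 Cdk19 knockout, 3 of 3 RasG12V and 3 of 3 untransformed libraries, and the other 6 genes in all 12.

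Hnf4a encodes a nuclear receptor, Foxa1 to Foxa3 forkhead pioneer factors, Cebpa a bZIP factor, Onecut1 (also called HNF6) and Onecut2 cut-homeodomain factors, and Prox1 a homeodomain factor. In the mouse liver these proteins bind shared enhancers and each other's genes, and together they open and maintain the hepatic programme as foregut endoderm becomes hepatoblasts. Hepatoblasts then form hepatocytes, where Hnf4a and Cebpa drive secreted and metabolic genes, or cholangiocytes, where Onecut1 and Onecut2 act early.

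The cells were BMEL, a bipotential mouse embryonic liver line, here derived from an animal with floxed Cdk8 alleles (CDK8 F/F), so that all groups share this origin. There were 3 RNA samples in each of 4 groups: Cdk8 -/- cells with H-RasG12V, Cdk19 -/- cells with H-RasG12V, wild-type cells with H-RasG12V (RasG12V below) and wild-type cells without it (untransformed). Cells were harvested while growing exponentially on collagen in a medium with serum and the growth factors EGF, insulin and IGFII. Cdk8 and Cdk19 are paralogous Mediator kinases, and the design asks how an activated Ras changes these progenitors and how loss of either kinase changes the transformed cells. The labels do not state whether samples of a group were separate cultures or clones, so the spread on which p-values rest may be technical. In bulk RNA, fewer cells that express a gene and less RNA per cell cannot be told apart.

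Libraries held 24823560 to 36879661 gene counts. Cdk8 lay between 41.4 and 43.8 CPM in the Cdk8 knockout, against 50.9 to 56.4 CPM in RasG12V, and Cdk19 between 45.0 and 53.1 CPM in the Cdk19 knockout, against 64.7 to 93.6 CPM in RasG12V. Counts over whole genes take in exons outside a deletion and do not check the knockout labels. RasG12V replicate 3 stood apart from its group, with a mean chi-square per gene of 92.6 and 84.6 against replicates 1 and 2, which had 4.56 between them. Untransformed replicate 3 had 55.0 and 56.0, against 8.02 between the other untransformed libraries. Hras, to which reads of the transgene may map, was at 510, 537 and 313 CPM in RasG12V replicates 1, 2 and 3, against 40.7 to 57.5 CPM in untransformed cells. Results below are therefore also given without both replicates 3 where that changes them. As a check of the cell type, the progenitor and biliary keratin Krt19 averaged 2164 ± 626 CPM in RasG12V and 2160 ± 271 CPM in untransformed cells (SD, n = 3 each), while albumin (Alb), which defines hepatocytes, was at most 0.0603 CPM in RasG12V libraries and between 1.73 and 4.12 CPM in untransformed cells. Summed CPM of 10 hepatocyte markers, mostly from Apob, lay at 400 to 600 in the Cdk8 knockout, 416 to 468 in the Cdk19 knockout, 372 to 549 in RasG12V and 1041 to 1208 in untransformed cells, and that of 9 cholangiocyte and progenitor markers, mostly from Krt19, at 2958 to 3557, 2625 to 3244, 2370 to 4743 and 2651 to 3068. Of the 9 cholangiocyte and progenitor markers, 8 were tested in RasG12V against untransformed cells. At an adjusted p under 0.05, 2 rose and 4 fell, and 2, Krt19 among them, did not pass (23.4% of all genes passed). Epcam, another progenitor marker, did not exceed 0.211 CPM in any library. The part of these marker levels in the results was not tested. Summed CPM of 9 stellate and fibroblast markers did not exceed 2.33 in any library, of 7 endothelial markers 0.669 and of 6 erythroid markers 0.242, and Lum, Kdr, Emcn, Adgre1 and the globins Hba-a1, Hbb-bt and Hbb-bs had no read. The sums of 7 macrophage markers, 33.6 to 60.5 CPM, came mostly from Cd14. Those of 6 mesothelial markers were high, at 1374 to 1427 CPM in the Cdk8 knockout and 1091.5 to 1186 CPM in the Cdk19 knockout. They were 1292 to 1375 CPM in RasG12V and 1363 to 1659 CPM in untransformed cells. Nearly all of this came from Msln, and no other mesothelial marker exceeded 6.59 CPM (Upk3b in untransformed replicate 3).

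The upstream DNA of the genes on which the results turn is shown here, from RefSeq starts on GRCm38.p6. RefSeq promoter windows of 300 bases (250 before to 50 after the start) were found for 7 of the 8 genes, with 11 starts. Each line gives the 200 bases that end 51 bases before a start, 5′ to 3′ on the gene's own strand, with a match to a searched motif in capitals. Foxa1 and Onecut1 are shown because they passed the test in opposite directions, Foxa3 because it was low in most transformed libraries, and the 2 starts of Hnf4a, 40298 bases apart, because this gene had the highest level per length and is known to use an upstream and a downstream promoter.
Foxa1, chr12:57546162-57546361, minus strand: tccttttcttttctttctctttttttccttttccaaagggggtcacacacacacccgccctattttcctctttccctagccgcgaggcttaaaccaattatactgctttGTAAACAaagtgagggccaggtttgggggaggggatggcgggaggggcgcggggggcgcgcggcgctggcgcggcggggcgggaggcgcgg
Onecut1, chr9:74861671-74861870, plus strand: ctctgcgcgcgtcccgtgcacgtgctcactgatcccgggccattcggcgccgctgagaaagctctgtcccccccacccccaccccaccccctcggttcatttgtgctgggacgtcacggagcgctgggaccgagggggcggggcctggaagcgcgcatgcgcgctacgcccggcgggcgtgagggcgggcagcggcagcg
Foxa3, chr7:19023590-19023789, minus strand: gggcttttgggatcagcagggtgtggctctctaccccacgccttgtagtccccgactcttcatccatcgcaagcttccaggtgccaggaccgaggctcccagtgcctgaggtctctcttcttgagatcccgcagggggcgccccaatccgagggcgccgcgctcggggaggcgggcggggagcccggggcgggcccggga
Hnf4a upstream start, chr2:163506607-163506806, plus strand: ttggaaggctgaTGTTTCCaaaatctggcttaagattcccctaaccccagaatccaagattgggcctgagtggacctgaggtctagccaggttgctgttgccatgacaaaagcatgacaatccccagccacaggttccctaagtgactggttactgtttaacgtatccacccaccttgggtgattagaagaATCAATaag
Hnf4a downstream start, chr2:163546905-163547104, plus strand: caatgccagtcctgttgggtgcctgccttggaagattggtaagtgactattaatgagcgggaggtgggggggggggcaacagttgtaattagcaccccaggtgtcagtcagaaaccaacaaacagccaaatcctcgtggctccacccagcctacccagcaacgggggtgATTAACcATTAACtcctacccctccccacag
By GENCODE M21, the Foxa1 stretch lies in an intron of a longer Foxa1 transcript, the stretch of the downstream Hnf4a start lies inside the gene and shares 38 bases with an exon of another transcript, and the other 3 lie outside their own gene.

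6 motifs were searched on both strands of the 300-base windows: HNF4 as CAAAGTC, FOXA as TGTTTNC, CEBP as TTNNGCAA, ONECUT as ATTGAT, HNF1 as GTTAAT and AP-1 as TGANTCA. The capitals in Foxa1 are a FOXA match that begins 141 bases before the start. The upstream Hnf4a start has a FOXA match at 238 and an ONECUT match at 59 bases before it, and the downstream one a pair of HNF1 matches, 81 and 74 bases before it. Of the 11 starts, 3 held FOXA (the other is the second start of Prox1), 2 ONECUT (the other at the first start of Foxa2) and 2 HNF1 (the other at the most downstream start of Foxa2). Among 32851 promoter windows of the same length the shares were 20.5% for FOXA, 7.54% for ONECUT, 7.10% for HNF1, 4.44% for HNF4, 10.8% for CEBP and 7.81% for AP-1, and no member start held the last 3. The Onecut1 and Foxa3 windows held none of the 6. A match is a string of letters and not a measured site.

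Per length, the order of levels was headed by Hnf4a and Foxa2 in all 4 groups. In CPM per kb of exon, Hnf4a averaged 68.1 in the Cdk8 knockout, 62.8 in the Cdk19 knockout, 74.1 in RasG12V and 85.4 in untransformed cells, and Foxa2 26.5, 24.5, 27.7 and 29.5 in the same groups. In each transformed group Foxa1 ranked next, at 7.48, 6.61 and 6.92 CPM per kb. In untransformed cells it had 2.97 CPM per kb, below Onecut2 at 5.34 and Cebpa at 4.20. Prox1, at 1.27 to 1.74 CPM per kb, Foxa3, at 0.140 to 1.09, and Onecut1, at 0.0253 to 0.214, came last, in this order, in every group by group mean. Neighbours in this order had separate ranges over the 3 libraries of a group, except Onecut2 and Cebpa, whose ranges overlapped in the Cdk19 knockout and in RasG12V. In GENCODE M21, 52.8% of the exonic bases of Onecut1 (2171 of 4113) are shared on the same strand with the lincRNA Gm20649, which had no read in any library. Reads in shared exons count as ambiguous, so Onecut1 is undercounted if the annotation behind the deposited counts, whose release is not given, had the same models. Over the unshared 1942 bases of M21 its level in untransformed cells would be 0.453 CPM per kb, still below that of Foxa3.

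**Figure D1:**
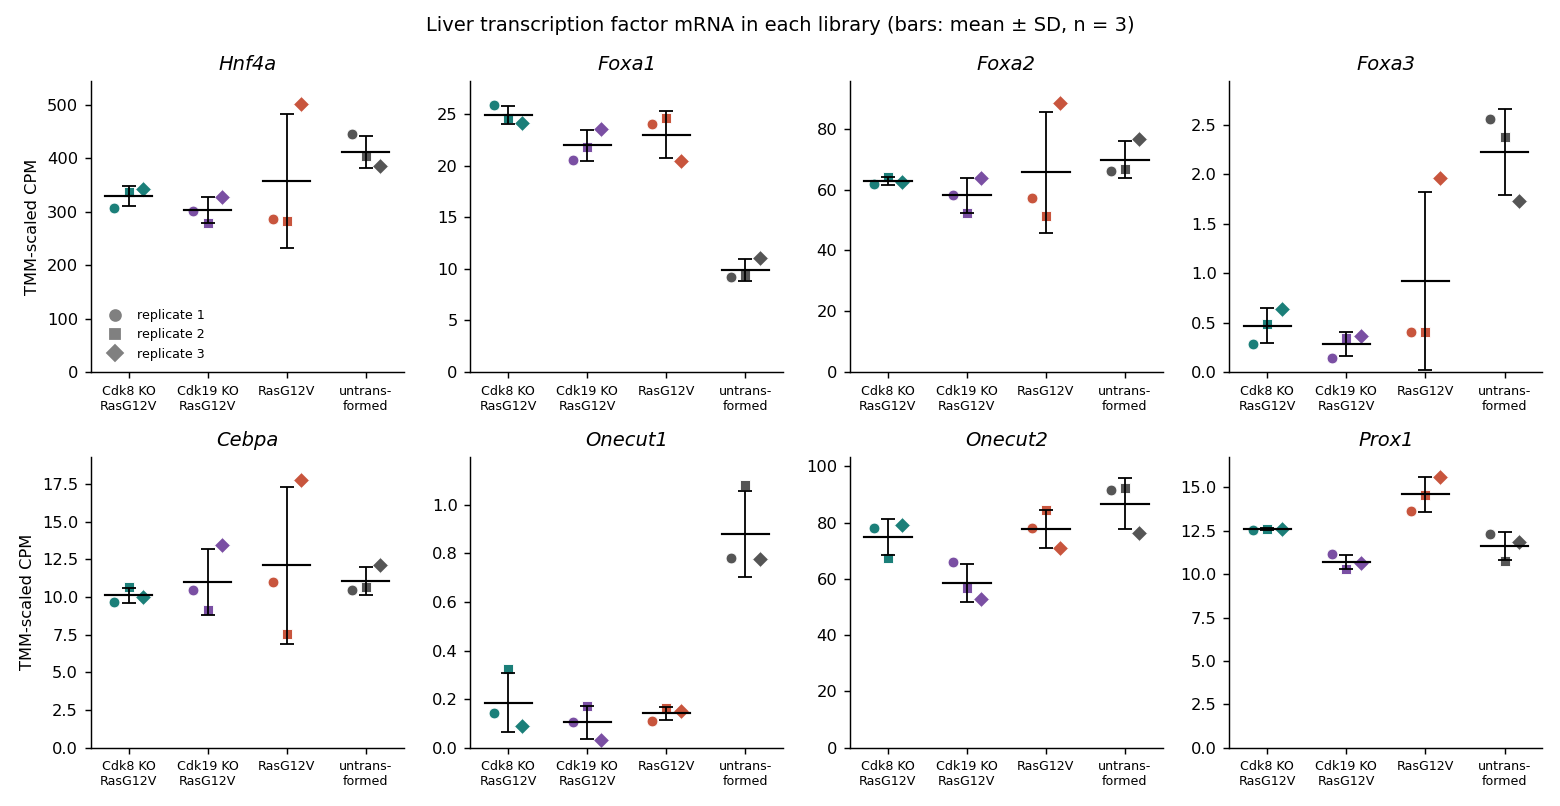
TMM-scaled CPM of each gene (linear axis from 0) in every library, with marker shape for the replicate number and bars for mean ± SD of 3 libraries. Foxa1 is higher, and Onecut1 lower, in all 9 transformed libraries than in the 3 untransformed ones, and RasG12V replicate 3 is the highest transformed library for Hnf4a, Foxa2, Foxa3 and Cebpa.

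Foxa1 rose with RasG12V, Prox1 rose to a lesser degree and Onecut1 fell, while Hnf4a, Foxa2, Foxa3, Cebpa and Onecut2 did not pass the test. That is 2 risers and 1 faller among 8 genes, where 23.4% of all 14283 genes passed (11.9% higher and 11.5% lower), so the share is near that of the table as a whole. The faller, Onecut1, was tested only because of its untransformed level, so a difference from that group was built into its selection. The median log2 fold change was -0.12 over the 8 genes and -0.0004 over all genes tested. All values below are TMM-scaled CPM, and each p is from edgeR's quasi-likelihood test, adjusted over all genes tested.

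Foxa1 (chromosome 12, 57540628 to 57546916, minus strand) had 24.0, 24.6 and 20.4 CPM in RasG12V replicates 1, 2 and 3, against 9.19, 9.40 and 11.1 CPM in untransformed cells. The groups did not overlap, and RasG12V replicate 3 was the lowest of the 9 transformed libraries. Foxa1 rose by 1.22 on the log2 scale, with SE 0.11 and adjusted p = 7.2e-06, and leaving out any single library moved this between 1.16 and 1.31. Cdk8 knockout libraries held 25.9, 24.6 and 24.2 CPM and Cdk19 knockout libraries 20.6, 21.8 and 23.5 CPM. Set against the same untransformed libraries, Foxa1 rose by 1.33 (SE 0.11, adjusted p = 4.0e-06) with Cdk8 lost and by 1.15 (SE 0.11, adjusted p = 1.1e-05) with Cdk19 lost. These 3 comparisons share their untransformed libraries and are not independent.

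Foxa2 (chromosome 2, 148042877 to 148046969, minus strand), which with Foxa1 gives endoderm its competence to become liver, had 57.1, 51.2 and 88.5 CPM in RasG12V, against 66.1, 66.7 and 76.8 CPM in untransformed cells. The groups overlapped through RasG12V replicate 3 alone. With all libraries the log2 fold change of Foxa2 was -0.09 (SE 0.16, adjusted p = 0.752). It was -0.35 once that library was left out, and Foxa2 then fell (adjusted p = 0.0131). Cdk8 knockout libraries lay between 61.8 and 64.1 CPM (log2 fold change over untransformed cells -0.15, SE 0.16, adjusted p = 0.553). Cdk19 knockout libraries lay between 52.3 and 63.9 CPM (-0.27, SE 0.16, adjusted p = 0.269), and without RasG12V replicate 3 in the fit the value there was -0.25 (adjusted p = 0.0362).

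Foxa3 (chromosome 7, 19013284 to 19023538, minus strand), the family member that comes on last in liver development, had 0.401, 0.409 and 1.96 CPM in RasG12V (11, 10 and 65 counts), against 2.56, 2.38 and 1.73 CPM in untransformed cells (72, 77 and 58 counts). RasG12V replicate 3 lay above untransformed replicate 3, and the other 2 RasG12V libraries lay below all untransformed ones. The log2 fold change was -1.21 (SE 0.51, adjusted p = 0.108). With all libraries Foxa3 did pass in limma-voom (-1.55, adjusted p = 0.0331) and in edgeR with the replicate number as a block (-1.44, adjusted p = 0.0474). Without RasG12V replicate 3 Foxa3 fell by 2.43 (adjusted p = 3.1e-04), and without both replicates 3 by 2.61 (SE 0.38, adjusted p = 1.5e-05). Cdk8 knockout libraries had 0.283, 0.488 and 0.639 CPM and Cdk19 knockout libraries 0.141, 0.346 and 0.368 CPM. All 6 lay below the untransformed libraries. Foxa3 fell in both, with a log2 fold change over untransformed cells of -2.21 after loss of Cdk8 (SE 0.54, adjusted p = 0.00996) and of -2.94 after loss of Cdk19 (SE 0.59, adjusted p = 0.00287). Without Cdk8 knockout replicate 1, which had 8 counts, the adjusted p of the Cdk8 knockout was 0.0505.

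Within the Foxa family, counted as CPM per kb of exon, Foxa1 made up 21.9% ± 0.862 in the Cdk8 knockout, 21.2% ± 1.43 in the Cdk19 knockout, 20.7% ± 6.08 in RasG12V and 8.85% ± 0.223 in untransformed cells (SD, n = 3 each). Every transformed library, 13.8% at the lowest in RasG12V replicate 3, lay above the highest untransformed one at 9.10%. Foxa2 held most of the family in all groups, 77.5%, 78.4%, 78.2% and 87.9% in the same order. Foxa3 held 0.675%, 0.448%, 1.16% and 3.30%. The longest stretch of identical sequence between transcripts of Foxa1 and Foxa2 is 38 bases, and 20 bases between Foxa3 and either of them. Between Onecut1 and Onecut2 it is 26 bases.

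**Figure D2:**
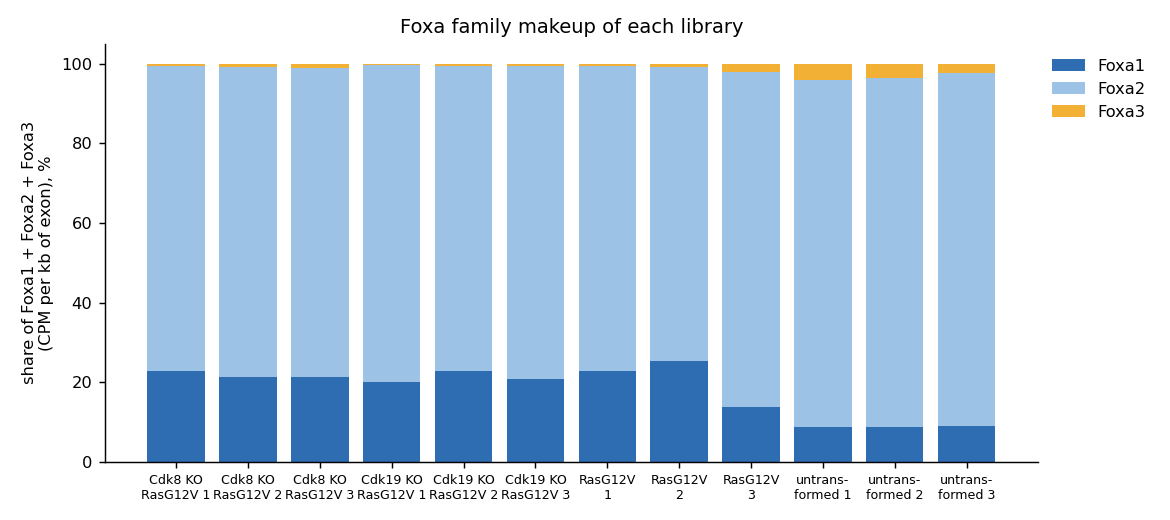
Share of each Foxa gene in the summed CPM per kb of exon of Foxa1, Foxa2 and Foxa3, in percent, 1 bar per library. Foxa1 lies between 13.8% and 25.3% in transformed libraries and between 8.66% and 9.10% in untransformed ones, with RasG12V replicate 3 the lowest transformed library.

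Onecut1 (chromosome 9, 74861921 to 74891781, plus strand) had 0.109, 0.164 and 0.151 CPM in RasG12V, from 3, 4 and 5 counts, against 0.781, 1.08 and 0.775 CPM in untransformed cells, from 22, 35 and 26 counts. The groups did not overlap. Onecut1 fell by 2.61 (log2 scale, SE 0.47, adjusted p = 0.00145), and by 2.44 to 2.69 with any single library left out. Onecut1 also fell after loss of Cdk8, with 4, 12 and 3 counts (log2 fold change -2.18, SE 0.43, adjusted p = 0.00265), and of Cdk19, with 3, 5 and 1 (-3.04, SE 0.49, adjusted p = 6.4e-04). Summed over each group, there were 19, 9 and 12 counts in the Cdk8 knockout, the Cdk19 knockout and RasG12V, against 83 in untransformed cells. Over total gene counts, without TMM scaling, these gave levels 4.58-fold, 8.60-fold and 6.37-fold lower. The 95% counting intervals were 2.75 to 7.98, 4.32 to 19.5 and 3.46 to 12.8. These intervals cover counting error only, and since Onecut1 was tested only because of its untransformed level, a difference from that group was built into its selection.

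Onecut2 (chromosome 18, 64340020 to 64400987, plus strand), a paralog partly redundant with Onecut1 in the mouse liver, was far more abundant. It had 78.1, 84.5 and 71.0 CPM in RasG12V, against 91.6, 92.3 and 76.2 CPM in untransformed cells, and these ranges overlapped (log2 fold change -0.16, SE 0.11, adjusted p = 0.356). Cdk19 knockout libraries had 66.1, 56.7 and 52.8 CPM, below every library of the 3 other groups. In them Onecut2 fell against untransformed cells, with a log2 fold change of -0.57 (SE 0.11, adjusted p = 0.00243). Cdk8 knockout libraries had 78.2, 67.6 and 79.3 CPM (-0.21, SE 0.11, adjusted p = 0.201). The Cdk8 knockout value became -0.30 without both replicates 3 (adjusted p = 0.00822), and Onecut2 then fell there. Onecut1 made up 0.713% ± 0.146 of the CPM per kb of the pair in RasG12V and 3.85% ± 0.585 in untransformed cells (SD, n = 3 each).

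Hnf4a (chromosome 2, 163506808 to 163572910, plus strand) had 287, 283 and 503 CPM in RasG12V, against 445, 405 and 387 CPM in untransformed cells. RasG12V replicate 3 was the highest of all 12 libraries and the other RasG12V libraries lay below every untransformed one. The log2 fold change was -0.20 (SE 0.18, adjusted p = 0.464). Without RasG12V replicate 3 Hnf4a fell by 0.52 (adjusted p = 4.3e-04), and without both replicates 3 by 0.59 (SE 0.08, adjusted p = 6.6e-06). Cdk8 knockout libraries had 307, 336 and 343 CPM and Cdk19 knockout libraries 302, 279 and 328 CPM, all below the untransformed libraries. Over untransformed cells the log2 fold change was -0.33 (SE 0.18, adjusted p = 0.222) after loss of Cdk8. For loss of Cdk19 it was -0.44 (SE 0.18, adjusted p = 0.0934). With RasG12V replicate 3 out of the shared fit, Hnf4a passed and fell in both, at adjusted p = 0.00689 for loss of Cdk8 and 5.9e-04 for loss of Cdk19. Counts per gene do not separate the transcripts of the upstream and downstream starts shown above.

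Cebpa (chromosome 7, 35119293 to 35121928, plus strand), which restrains proliferation in hepatocytes, had 11.0, 7.57 and 17.8 CPM in RasG12V, against 10.5, 10.6 and 12.1 CPM in untransformed cells. RasG12V held both the lowest and the highest of the 12 libraries. The log2 fold change was 0.13 (SE 0.24, adjusted p = 0.751). It was -0.24 without RasG12V replicate 3 (adjusted p = 0.328). Libraries without Cdk8 lay between 9.69 and 10.7 CPM and those without Cdk19 between 9.16 and 13.5 CPM, both overlapping untransformed cells.

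Prox1 (chromosome 1, 190118035 to 190170714, minus strand), which hepatoblasts need to migrate out of the liver bud, had 13.6, 14.6 and 15.6 CPM in RasG12V, against 12.3, 10.7 and 11.8 CPM in untransformed cells, with no overlap. It rose by 0.33 (log2 scale, SE 0.10, adjusted p = 0.0263). The adjusted p was 0.0561 without RasG12V replicate 2, 0.126 without untransformed replicate 2 and 0.0511 without both replicates 3. The fit to these 2 groups alone gave 0.146 and the fit with no filter 0.164, so the call rests on the choice of fit and of libraries. Prox1 had 12.6 CPM in each Cdk8 knockout library (log2 fold change 0.12 over untransformed cells, adjusted p = 0.433). Cdk19 knockout libraries had 11.1, 10.3 and 10.6 CPM (-0.12, adjusted p = 0.404).

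RasG12V replicate 3 moved these genes unequally. Against the mean of replicates 1 and 2 it had 4.84 times the Foxa3 level, 1.92 times that of Cebpa, 1.76 times that of Hnf4a and 1.63 times that of Foxa2. The ratio was 1.11 for Prox1, 1.10 for Onecut1, 0.874 for Onecut2 and 0.839 for Foxa1. Its Hras level of 313 CPM and its share of mitochondrial reads, the highest of the 12 libraries at 1.92%, stand beside these values, and their part in them was not tested. Without this library 2 of the 8 genes rose and 4 fell with RasG12V (33.0% of all genes then passed), and without both replicates 3 only Foxa1 rose and Hnf4a, Foxa2, Foxa3 and Onecut1 fell (40% of all genes).

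**Figure D3:**
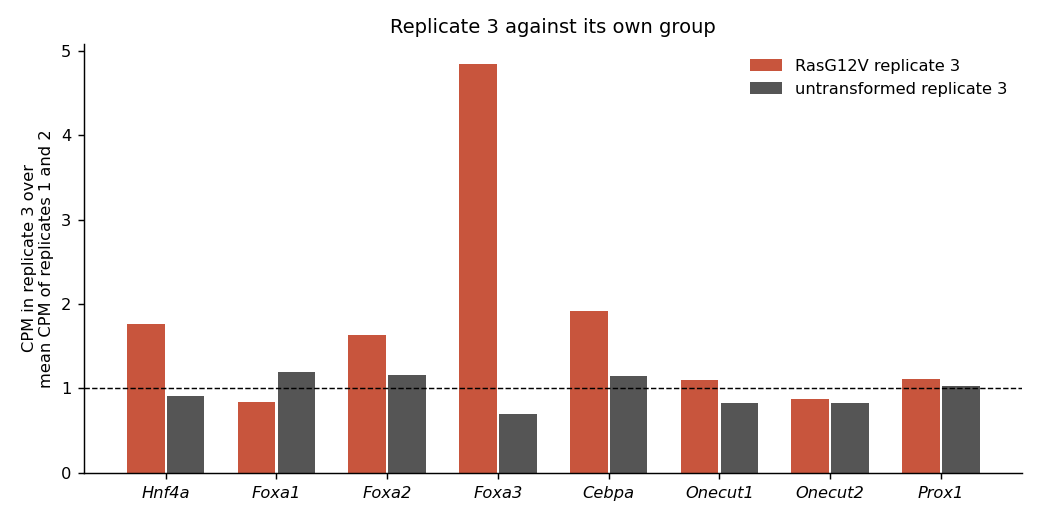
Level of each gene (CPM) in replicate 3 divided by the mean of replicates 1 and 2 of the same group, for RasG12V (left bars) and untransformed cells (right bars), with a dashed line at 1. Foxa3 at 4.84 has the highest ratio in RasG12V, and Foxa1 and Onecut2 lie below 1 there.

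Among the 8 genes, 1 rose and 2 fell in the Cdk8 knockout against untransformed cells (24.4% of all genes passed), and 1 rose and 3 fell in the Cdk19 knockout (25.3%). Libraries did not overlap for 6 of the 8 in each, where 42.6% of all genes did not overlap for the Cdk8 and 43.8% for the Cdk19 knockout, and for 3 of the 8 in RasG12V, where the share was 32.3%. Without both replicates 3 the counts were 1 higher and 4 lower in the Cdk8 knockout (42.2% of all genes), and 1 higher and 5 lower in the Cdk19 knockout (43.6%). Onecut1, tested only because of its untransformed level, is among the fallers and the genes without overlap in all of these counts.

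Against RasG12V, no member passed in the Cdk8 knockout, and 0 of 14283 genes did (0%), with 871 genes and 1 member, Prox1, at an unadjusted p under 0.05. DESeq2 called 30 genes and limma-voom 0, none of them a member. Prox1 had 12.6 CPM in each Cdk8 knockout library, against 13.6 to 15.6 CPM in RasG12V (log2 fold change -0.21, SE 0.10, adjusted p = 0.818). For Foxa1 the log2 difference was 0.11 (SE 0.10) and for Onecut2 -0.05 (SE 0.11). For Hnf4a it was -0.12 (SE 0.18), and 0.21 without both replicates 3 (SE 0.07, adjusted p = 0.129). For Foxa3 it was -1.001 (SE 0.57), and 0.24 without them (SE 0.43, adjusted p = 0.815), where 1.59% of all genes and no member passed. A p that misses the threshold does not show that the levels were equal.

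In the Cdk19 knockout against RasG12V 0 of 8 members passed, and 2 genes in all (0.014%, with 0.007% higher and 0.007% lower). At an unadjusted p under 0.05 there were 1089 genes and 3 members (Onecut2, Prox1 and Foxa3). DESeq2 called 66 genes and 1 member, and limma-voom 2 genes and no member. Onecut2, at 52.8 to 66.1 CPM against 71.0 to 84.5 CPM in RasG12V, had a log2 fold change of -0.41 (SE 0.11, adjusted p = 0.362), and Prox1, at 10.3 to 11.1 CPM against 13.6 to 15.6 CPM, of -0.45 (SE 0.10, adjusted p = 0.237). Neither pair of groups overlapped. The same held for Foxa3, at a mean of 0.285 CPM against 0.923 CPM (-1.72, SE 0.62, adjusted p = 0.547, and -0.49 without both replicates 3). Libraries thus did not overlap for 3 of the 8 members, where the share of all genes was 14.5%. Without both replicates 3 Onecut2 fell by 0.47 (SE 0.09, adjusted p = 0.00807) and Prox1 by 0.39 (SE 0.10, adjusted p = 0.0489), where 2.01% of all genes passed. DESeq2 on all libraries gave an adjusted p of 0.012 for Prox1, and edgeR with no filter 0.0463 for Onecut2.

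The direct comparison of the Cdk8 with the Cdk19 knockout, whose groups do not hold the libraries that stood apart, although these enter the fit, gave no call among the 8 and 15 in all genes (0.105%, with 0.077% higher and 0.028% lower). There were 1027 genes and 2 members, Onecut2 and Prox1, at an unadjusted p under 0.05. DESeq2 called 113 genes and limma-voom 16, with no member among them. Onecut2 had 78.2, 67.6 and 79.3 CPM in the Cdk8 knockout, against 66.1, 56.7 and 52.8 CPM in the Cdk19 knockout, without overlap (log2 fold change 0.36, SE 0.11, adjusted p = 0.416). Onecut2 passed with these 2 groups fitted alone (adjusted p = 0.0258) and without both replicates 3 (0.0121, where 5.32% of all genes passed). Prox1 was also apart, at 12.6 CPM in each Cdk8 knockout library against 10.3 to 11.1 CPM in the Cdk19 knockout (0.24, SE 0.10, adjusted p = 0.636). So was Foxa1, at 24.2 to 25.9 CPM against 20.6 to 23.5 CPM (0.18, SE 0.10, adjusted p = 0.819). Libraries thus did not overlap for 3 of the 8 members, where the share of all genes was 20.7%.

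**Figure D4:**
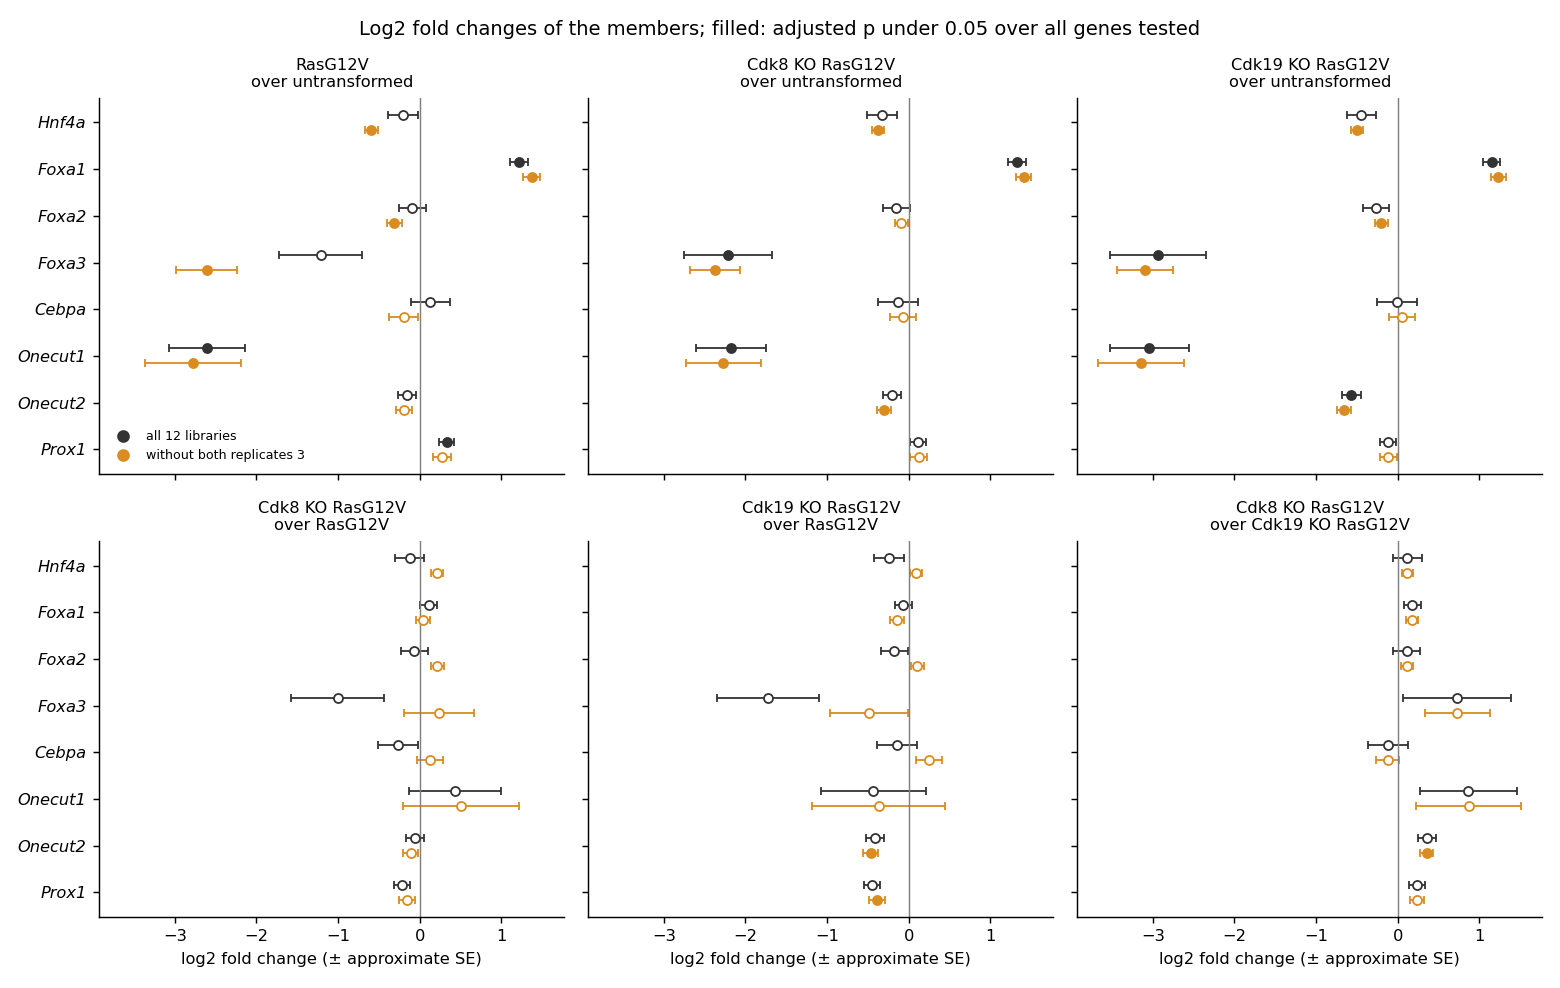
Log2 fold change ± approximate SE of the 8 genes in 6 comparisons, with all 12 libraries (dark) and without both replicates 3 (orange), filled where the adjusted p over all genes tested was under 0.05. Foxa1 and Onecut1 are filled in all 3 comparisons with untransformed cells under both fits, and Hnf4a there only without both replicates 3.

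The genes beside the members differed in level. 9030622O22Rik, a lincRNA on the same strand that begins 2674 bases past the 3′ end of Foxa2 (chromosome 2, 147944740 to 148040203), had 4.28, 4.99 and 5.08 CPM in Cdk8 knockout, 2.08, 2.42 and 3.01 CPM in Cdk19 knockout, 3.17, 2.90 and 10.6 CPM in RasG12V, and 15.0, 16.0 and 14.5 CPM in untransformed libraries. Every transformed library was below every untransformed one, and RasG12V replicate 3 was again the highest of the transformed. It fell in all 3, with adjusted p = 0.00641 in the Cdk8 knockout, 4.9e-04 in the Cdk19 knockout and 0.0149 in RasG12V (log2 fold change -1.43, SE 0.37). The protein-coding neighbours R3hdml, beside Hnf4a, and Sympk, beside Foxa3, did not pass in any comparison. The antisense genes Hnf4aos, Prox1os, Gm28172 and Gm45091, and Gm16551 beside Onecut1, averaged at most 0.341 CPM in any group.

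By likeness of log2 CPM over the 12 libraries, Foxa1 was closest to Ppp1r18 (Pearson r = 0.99), Csn3 and Ercc1, among 10898 protein-coding genes. Hnf4a was closest to Ypel2 (0.99), AU040320 and Cd82, and Foxa2 to Fam20c (0.97), Pnrc1 and Enpp5. Foxa3 was closest to Syt11 (0.97), Slc43a2 and Abhd3, Cebpa to Eif4ebp1 (0.91), Inpp5f and Socs3, and Onecut1 to Fam83b (0.95), Lgalsl and the chemokine gene Ccl20. Onecut2 was closest to 9330159F19Rik (0.94), Ado and Rasgrf2, and Prox1 to Arrdc4 (0.90), Unc13b and Sox4. These values describe libraries that fall into 4 groups of 3 and share the libraries that stood apart.

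Of 30 other transcription factors of the liver network, 26 were tested, and with RasG12V 1 rose, 7 fell and 18 did not pass (11.9% of all genes rose and 11.5% fell), with a median log2 fold change of -0.21. Hhex, a homeobox factor of the early liver bud, fell to 18.2 ± 4.12 CPM in RasG12V, against 48.8 ± 8.92 CPM in untransformed cells (log2 fold change -1.42, adjusted p = 4.8e-05). Nr1i2, the xenobiotic receptor PXR, fell to 0.0825 ± 0.113 CPM in RasG12V, against 4.05 ± 1.73 CPM (adjusted p = 5.2e-05). Nr1i2 was tested only because of its untransformed level, so a difference from that group was built into its selection. Gata4, a zinc-finger partner of the Foxa factors, fell to 7.73 ± 0.240 CPM in RasG12V, against 12.1 ± 1.38 CPM (-0.64, adjusted p = 0.00105). The riser, named after its value was seen, was Tbx3, at 9.59 ± 0.662 CPM in RasG12V and 7.05 ± 0.638 CPM in untransformed cells (0.44, adjusted p = 0.0181). It lost the threshold in 4 of 22 alternatives, among them those without untransformed replicate 1 (adjusted p = 0.0514) or 2 (0.0911). In the Cdk8 knockout against untransformed cells 1 rose and 11 fell (24.4% of all genes passed), and in the Cdk19 knockout none rose and 13 fell (25.3%). In RasG12V 1 rose and 14 fell without both replicates 3, where 40% of all genes passed.

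Hepatocyte genes known to be bound by these factors were mostly too low to test, and 11 of 35 passed the filter, 3 of these through the untransformed libraries alone. With RasG12V 1 rose, 5 fell and 5 did not pass, where 23.4% of all genes passed (median log2 fold change of the list -1.27). Apob, which packs very low density lipoprotein, fell to 437 ± 90.5 CPM in RasG12V, against 1052 ± 83.2 CPM in untransformed cells (-1.27, adjusted p = 1.6e-04). Apoa1, the main apolipoprotein of high density lipoprotein, fell to 0.949 ± 1.17 CPM, against 13.1 ± 3.93 CPM (-3.71, adjusted p = 9.2e-04). Apoa1 had 0.146, 0.409 and 2.29 CPM in RasG12V replicates 1, 2 and 3, and its log2 fold change was -5.56 without replicate 3. Transthyretin (Ttr) fell to 0.242 ± 0.286 CPM, against 32.4 ± 20.2 CPM (adjusted p = 2.2e-05). The highest RasG12V library for Ttr was again replicate 3, at 0.573 CPM. Untransformed replicates 1, 2 and 3 had 43.6, 44.6 and 9.10 CPM of Ttr. Alb passed as well (adjusted p = 6.1e-05), from the few reads given above. Both Ttr and Alb were tested only because of their untransformed level, so a difference from that group was built into their selection. The riser, named after its value was seen, was the fetal gene Afp, at 15.6 ± 0.836 CPM in RasG12V and 9.93 ± 2.46 CPM in untransformed cells (0.66, adjusted p = 0.0076). Without both replicates 3 its value was 0.42 (adjusted p = 0.00294), and it lost the threshold in 1 of 22 alternatives. Over untransformed cells 2 rose and 6 fell with Cdk8 lost (24.4% of all genes passed), and 1 rose and 6 fell with Cdk19 lost (25.3%). In RasG12V 1 rose and 9 fell without both replicates 3 (40% of all genes).

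**Figure D5:**
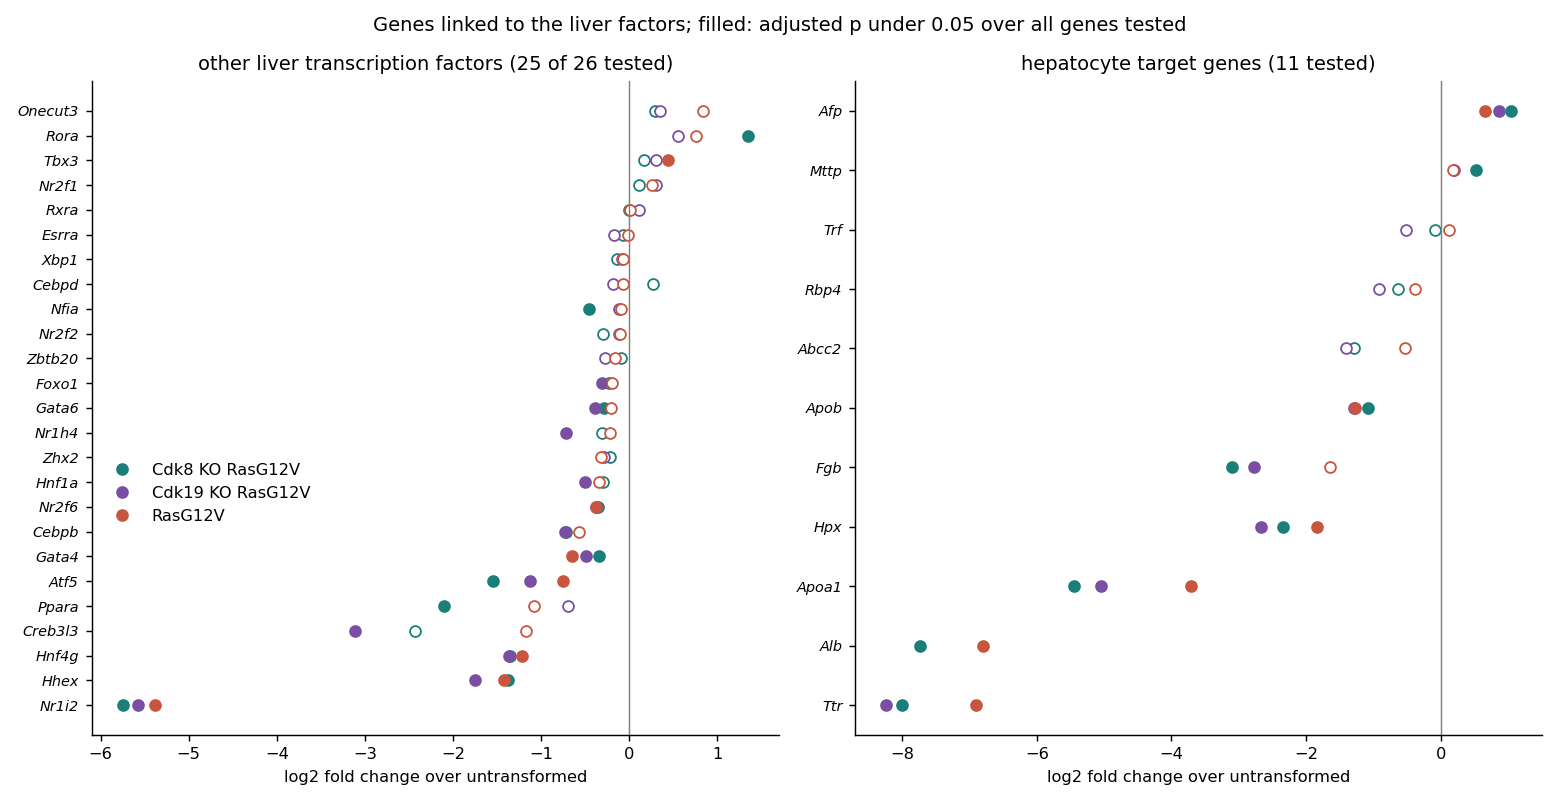
Log2 fold change over untransformed cells of the genes shown from 2 lists (25 of the 26 other liver transcription factors tested and all 11 hepatocyte target genes tested), ordered by the RasG12V value, in the Cdk8 knockout, the Cdk19 knockout and RasG12V, filled where the adjusted p over all genes tested was under 0.05. The point of Alb in the Cdk19 knockout is left out because that group had no Alb read, and Nr1i2 and Ttr have the lowest points in RasG12V on their panels.

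Of 16 biliary factors and markers, 14 were tested, and with RasG12V 4 rose, 7 fell and 3 did not pass, where 23.4% of all genes passed (median log2 fold change of the list -0.33). Bicc1, an RNA-binding protein of bile ducts and kidney tubules, fell to 69.4 ± 21.2 CPM in RasG12V, against 820 ± 51.3 CPM in untransformed cells (-3.56, adjusted p = 1.1e-07). The Notch target Hey1 fell by 2.61 (adjusted p = 2.5e-05), the keratin Krt7 by 1.13 (adjusted p = 2.6e-05) and the cilium gene Pkhd1 by 0.99 (adjusted p = 9.7e-05). The risers, named after their values were seen, were Sox9, a biliary factor, at 67.6 ± 20.0 CPM in RasG12V and 32.7 ± 7.96 CPM in untransformed cells (1.05, adjusted p = 0.002), with Spp1, Grhl2 and Sox4. Without both replicates 3 the value of Sox9 was 0.58 (adjusted p = 9.0e-06). Grhl2 had 0.474, 0.736 and 0.543 CPM in RasG12V, against 0.107, 0.0928 and 0.239 CPM in untransformed cells, all below the filter cutoff of 0.342 CPM. It was tested only because of its level in transformed libraries, so a difference from untransformed cells was built into its selection. The call of Sox4 (0.34, adjusted p = 0.0476) was lost in 14 of 22 alternatives, among them that without RasG12V replicate 3 (0.21, adjusted p = 0.0875). The value of Spp1, 2.54 with all libraries, was 1.62 without RasG12V replicate 3 and 3.26 without untransformed replicate 3. Spp1 lost the threshold in 1 of 22 alternatives. Of 17 gut and foregut genes 9 were tested, and with RasG12V none rose, 5 fell and 4 did not pass, where 11.5% of all genes fell (median of the list -0.61). Leading by adjusted p were the epithelial factors Ehf (-3.52, adjusted p = 2.2e-04), Klf4 (-1.11, adjusted p = 4.7e-04) and Elf3 (-1.66, adjusted p = 0.00144), and the microvillus gene Vil1 (-2.34, adjusted p = 0.0108). Vil1 had 24.9, 21.0 and 103 CPM in RasG12V, against 339, 312 and 103 CPM in untransformed cells, so that both replicates 3 lay at the same level. Its log2 fold change was -3.43 without RasG12V replicate 3 and -3.84 without both replicates 3, and that of Ehf -4.87 and -5.00. Vil1 lost the threshold in 2 of 22 alternatives. Without both replicates 3 the counts were 3 higher and 8 lower for the biliary list and 8 lower for the gut list, where 40% of all genes passed. Against RasG12V and between the knockouts, edgeR called no gene of the 4 lists with all libraries in the fit, and 0 to 3 genes of a list without both replicates 3. The shares of all genes called were 0% (Cdk8 knockout against RasG12V), 0.014% (Cdk19 knockout against RasG12V) and 0.105% (between the knockouts). Without both replicates 3 they were 1.59%, 2.01% and 5.32% in the same order.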

How the data were processed

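RNA was depleted of ribosomal RNA and sequenced from 12 samples, and the deposited values are read counts per Ensembl gene, 1 table per library with unstranded and strand-specific columns, per the labels and the file headers. Per the submitters' processing notes, reads were aligned with STAR 2.6.0a to GRCm38.p6 after FastQC, with an annotation release not given in the sources used here. Reverse-strand counts exceeded forward ones by 24.7 to 28.9 times and were used here. Left out of library sizes were unmapped reads (2.10% to 3.34%), reads mapped to several places (23.0% to 26.3%), reads outside genes (4.31% to 5.85%) and ambiguous reads (0.963% to 1.04%). The floor of 3 counts equals 0.0813 to 0.121 CPM.

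Symbols and coordinates are from GENCODE M21 (54079 of 54146 identifiers matched). Counts were tested with edgeR 4.0.16 in R 4.3.3 (filterByExpr, TMM, robust glmQLFit, glmQLFTest), all 12 libraries in 1 fit without a block, with Benjamini-Hochberg adjustment over 14283 genes and a threshold of 0.05. CPM values are TMM-scaled. SE is the absolute log2 fold change over the square root of F, an approximation. The test was checked on simulated counts with the same spread for every gene, changes only in well-counted genes and no library apart from its group. That check does not cover low counts such as those of Onecut1, or the replicates 3 that stood apart. Alternatives were RLE and upper quartile scaling, DESeq2 1.42.0, limma-voom (limma 3.58.1), no filter, at least 1 CPM in 3 libraries, the unstranded column, a replicate block, the 2 groups compared alone, each library left out, and both replicates 3 left out. Replicate libraries all differed by more than sampling noise.

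The 8 genes, the 4 gene lists, the 7 marker lists, the motifs and the tests were chosen with earlier results of these data known. Genes named are the 8, genes within 5 kb of them, the 3 protein-coding genes most like each (log2 CPM with a prior count of 2, mean of at least 1 CPM), and up to 4 genes of a list by adjusted p. Risers of a list beyond these were added after their values were seen. One gene of the lists, counted in their totals, is not reported here. Upstream sequences are RefSeq's, on GRCm38.p6.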

Additional observations from a re-analysis of the deposited data

How the results depend on the processing

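Of 217 values for members that passed the test, 211 kept their direction and side of the threshold over the 22 alternatives, and 6 kept the direction and lost the threshold: Prox1 in RasG12V against untransformed cells in 5 fits and Foxa3 in the Cdk8 knockout against untransformed cells in 1. Onecut1 was not tested under the filter of 1 CPM in 3 libraries, which leaves out 3 values. The number of the 8 genes that passed in RasG12V against untransformed cells was 3 and became 6 without RasG12V replicate 3 and 5 without both replicates 3 (2 to 6 with 1 library left out). In the Cdk8 knockout against untransformed cells it was 3, and 5 without both replicates 3 (2 to 4 with 1 library left out), and in the Cdk19 knockout against untransformed cells 4 (4 to 6). In the Cdk19 knockout against RasG12V it was 0, and 1 with no filter, 1 with DESeq2 and 2 without both replicates 3. Between the knockouts it was 0, and 1 with these 2 groups alone and 1 without both replicates 3. Leaving out 1 library gave 0 to 0 in both of these and in the Cdk8 knockout against RasG12V. The share of all genes that passed also changed without both replicates 3. Against untransformed cells it went from 23.4% to 40% in RasG12V (33.0% with only RasG12V replicate 3 left out). There it went from 24.4% to 42.2% in the Cdk8 and from 25.3% to 43.6% in the Cdk19 knockout. Against RasG12V it went from 0% to 1.59% and from 0.014% to 2.01%, and between the knockouts from 0.105% to 5.32%. The cause of these changes was not tested.

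Signs changed only for genes that had not passed. Without both replicates 3 the log2 fold change became -0.20 for Cebpa in RasG12V against untransformed cells. In the Cdk8 knockout against RasG12V it became 0.21 for Hnf4a, 0.22 for Foxa2, 0.24 for Foxa3 and 0.13 for Cebpa, and in the Cdk19 knockout against RasG12V 0.0937 for Hnf4a, 0.11 for Foxa2 and 0.25 for Cebpa. Cebpa in the Cdk19 knockout against untransformed cells, -0.01 with all libraries, became 0.0538 there, 0.0122 under upper quartile scaling and 0.0075 under a filter of 1 CPM. Ranges with 1 library left out that cross 0 were, in RasG12V against untransformed cells, -0.35 to 0.0734 for Foxa2 and -0.24 to 0.39 for Cebpa. In the Cdk8 knockout against RasG12V they were -0.26 to 0.21 for Hnf4a, -0.21 to 0.22 for Foxa2, -1.35 to 0.24 for Foxa3, -0.50 to 0.13 for Cebpa, -0.28 to 0.75 for Onecut1 and -0.11 to 0.0237 for Onecut2. In the Cdk19 knockout against RasG12V they were -0.38 to 0.0885 for Hnf4a, -0.33 to 0.10 for Foxa2 and -0.38 to 0.25 for Cebpa. Cebpa ranged from -0.24 to 0.0475 between the knockouts and from -0.19 to 0.12 in the Cdk19 knockout against untransformed cells.

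Of 18 same-number pairs, 8 correlated above 0.1 (-0.17 to 0.28), and 6 of 12 libraries correlated best with their own number among libraries of other groups. These values do not decide whether same-numbered replicates were paired. With the replicate number as a block the count of the 8 genes that passed in RasG12V against untransformed cells was 4, with Foxa3 added, and the block moved no other of these counts. At the counts of Onecut1 and Foxa3 in transformed cells, depth limits the precision of any difference between the transformed groups.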
